A study of Mus musculus with 2 samples.

Results

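Cluster 18 was a group of 59 of the 7613 leukocytes profiled from the atherosclerotic mouse aorta, and markers of plasmacytoid dendritic cells were among its leading genes. Its cells were taken by the cluster number in the authors' deposited cell table, which names the cluster Macrophages. All cells came from Apoe-/- mice, which lack apolipoprotein E and form arterial plaques. Mice of 1 group received nt-LNA at 30 mg/kg each week and mice of the other group received saline, and both ate a western diet for 4 weeks. The labels do not spell out nt-LNA (LNA usually stands for locked nucleic acid, a modified nucleotide used in antisense oligonucleotides). The aortic arch and thoracic aorta were digested, and live CD45+/CD3- cells were sorted into 1 droplet-based 10x library per treatment. This sort is meant to take leukocytes without the T cell receptor complex. The deposited table still names some clusters T cells, and Cd3e, which encodes a part of CD3, was counted in them. The labels do not say how many mice each library pooled, so the spread between animals was not measured and the treatments were not tested against each other. Counts of unique molecular identifiers (UMIs) were deposited as 1 total per gene and cluster, for 20 clusters and without a split by library, so gene levels describe the cluster and not a treatment.

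Plasmacytoid dendritic cells are rare leukocytes known for the large amounts of type I interferon they can secrete when viral or self RNA and DNA reach their endosomes. The endosomal receptors TLR7 and TLR9 bind these nucleic acids and signal through the adaptor MyD88 to the transcription factor IRF7. The E protein TCF4 (also called E2-2) sets and maintains the identity of these cells, whereas ID2, an inhibitor of E proteins, goes with the conventional dendritic cells, whose main task is to present antigen to T cells.

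E proteins such as TCF4 bind E-boxes (CANNTG, in which N is any base), so the promoters of 3 of the leading genes are printed with every E-box in capitals. Siglech and Klk1 each held 3 E-boxes, and Pacsin1, shown as the contrast, held 0. The sequences are from RefSeq, matched by symbol, and run 5′ to 3′ on the plus strand of GRCm38.p6 from 250 bases before to 50 bases after the annotated start. Siglech was taken from chr7:55767934-55768233, Klk1 from chr7:44225110-44225409 and Pacsin1 from chr17:27684989-27685288.
Siglech: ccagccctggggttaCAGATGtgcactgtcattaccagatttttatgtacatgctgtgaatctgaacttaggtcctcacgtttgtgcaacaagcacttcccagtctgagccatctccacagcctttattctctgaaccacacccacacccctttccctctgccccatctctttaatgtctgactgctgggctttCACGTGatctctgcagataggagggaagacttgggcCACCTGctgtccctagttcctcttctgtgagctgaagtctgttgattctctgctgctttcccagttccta
Klk1: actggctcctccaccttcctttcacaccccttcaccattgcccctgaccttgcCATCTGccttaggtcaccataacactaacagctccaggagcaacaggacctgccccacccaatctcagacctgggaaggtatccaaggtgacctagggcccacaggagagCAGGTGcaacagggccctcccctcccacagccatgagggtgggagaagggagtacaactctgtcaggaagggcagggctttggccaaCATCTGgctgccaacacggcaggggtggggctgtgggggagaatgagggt
Pacsin1: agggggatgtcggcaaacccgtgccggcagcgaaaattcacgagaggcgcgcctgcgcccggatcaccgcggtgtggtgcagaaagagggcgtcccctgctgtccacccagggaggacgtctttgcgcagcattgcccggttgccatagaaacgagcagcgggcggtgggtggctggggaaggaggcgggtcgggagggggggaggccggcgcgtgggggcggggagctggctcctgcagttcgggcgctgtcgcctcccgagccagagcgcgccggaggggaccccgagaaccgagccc
The 25 genes with the largest ratio of cluster 18 to the other clusters included 16 with an entry in the promoter table, with 18 promoters in all. On either strand, 15 of the 18 promoters (83.3%) held an E-box, against 72.3% of all 32851 promoters of that length. Within the E-boxes, of which it is a subset, CAGGTG was in 38.9% of the 18 promoters and 20.2% of all, and the subset CAGCTG in 11.1% of the 18 and 16.3% of all. An IRF element, a motif for interferon regulatory factors searched on both strands, was in 5.56% of the 18 and 3.44% of all. These are matches of letters in a window, and binding was not measured here.

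Cluster 18 held 542811 UMIs, or 9200.2 UMIs per cell, against 14872 per cell in cluster 8 and 17887 per cell in cluster 17, the clusters richest in conventional dendritic markers, which the deposited table also names Macrophages. Mitochondrial genes took 4.26% and ribosomal protein genes 19.9% of its UMIs, both inside the range of the other clusters. The mitochondrial share was above the 2.98% of cluster 8 and the 2.75% of cluster 17. It was also the highest of the clusters named Macrophages. Levels are given as CPM, a gene's count scaled to the same total in every cluster. At this depth 1 count in cluster 18 equals 1.84 CPM, and a gene with 0 counts could lie at up to 5.53 CPM (3 counts). Of 31053 genes listed, 19560 had a count in some cluster and 11249 had a count in cluster 18. That is the background for every number of genes at 0 below. Intervals beside CPM are exact Poisson 95% intervals, which cover counting error only. The libraries shared 2 cell barcodes, and 0 of them were in cluster 18. Doublets could not be examined, because counts per cell are not analysed here.

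The first question was whether nt-LNA went with a different share of these cells. Cluster 18 took 39 of 4871 cells (0.801%, exact Clopper-Pearson 95% interval 0.570 to 1.09) of the nt-LNA library and 20 of 2742 cells (0.729%, 0.446 to 1.12) of the saline library. These shares lie within each other's intervals, and their ratio was 1.10 (exact interval 0.625 to 1.99). Among the cells of the dendritic clusters 8, 17 and 18, cluster 18 took 13.5% (9.78 to 17.98) in the nt-LNA library and 8.16% (5.06 to 12.3) in the saline library, and the ratio of 1.65 (0.941 to 2.99) again spanned 1. Set against single neighbours, there were 0.639 cells of cluster 18 per cell of cluster 17 in the nt-LNA library and 0.513 in the saline library, a ratio of 1.25 (0.710 to 2.26). Per cell of cluster 8 there were 0.206 in the nt-LNA library and 0.108 in the saline library, a ratio of 1.92 (1.09 to 3.47). That interval lies above 1, but like the others it covers counting error only and leaves out the spread between mice or libraries. With 1 library per treatment, a difference between the libraries cannot be assigned to nt-LNA. Cluster 8 itself took 3.88% (3.36 to 4.46) of the nt-LNA library and 6.78% (5.87 to 7.79) of the saline library. Among all cells, the share of cluster 18 was not distinguishable between the libraries at this depth.

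**Figure D1:**
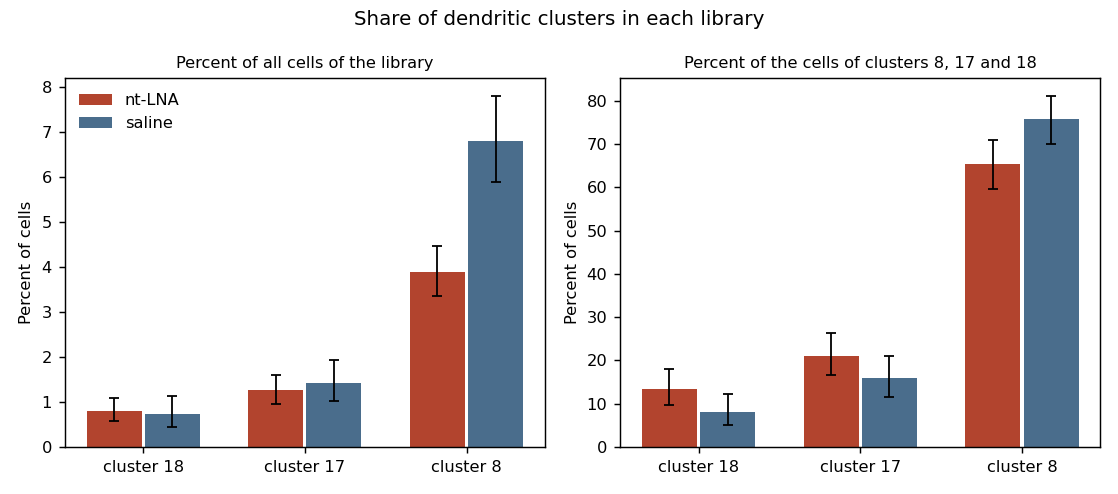
Percent of cells in clusters 18, 17 and 8 in the nt-LNA library (left bar of each pair) and the saline library (right bar), out of all cells (left panel) and out of the cells of the 3 clusters (right panel). Bars are single libraries and error bars are exact 95% binomial intervals. Cluster 18 has overlapping intervals in both panels, at 0.801% and 0.729% of all cells and at 13.5% and 8.16% of the 3 clusters.

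The label was checked against 12 markers of plasmacytoid dendritic cells. All 12 were over 2-fold higher in cluster 18 than in the mean of the other 19 clusters, and all 12 were over 2-fold higher than in the mean of clusters 8 and 17. Because the clusters were made from these genes, this describes the cluster and is not a test of it. Siglech, a lectin receptor used as the main surface marker of these cells in mice, had 2199.7 CPM (2077 to 2328) in cluster 18, 9.68 in cluster 8 and 8.95 in cluster 17. Across the other 19 clusters Siglech had a lowest value of 0, a median of 1.60 and a highest of 14.6 CPM, so no other cluster came near, and 76.3% of all its counts lay in this 0.775% of the cells. Bst2, the tetherin antigen recognised by the antibody PDCA-1, had 5011 CPM (4824 to 5203) in cluster 18, against 394 in cluster 8, 354 in cluster 17 and 107, 215 and 496 CPM as the lowest, median and highest of the others. Tcf4 had 1251 CPM (1159 to 1349) in cluster 18, 139 in cluster 8 and 65.4 in cluster 17, and its highest value elsewhere was 433 CPM in cluster 2, which the deposited table names B cells. For these 3 genes cluster 18 stood above each of the other 19 clusters.

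Ccr9 and Ly6d were the markers least particular to the cluster. Ccr9, a chemokine receptor that guides cells to the gut and thymus, had 1004 CPM (921 to 1092) in cluster 18, 111 in cluster 8 and 67.1 in cluster 17, but reached 1764 CPM in cluster 5, which the deposited table names T cells. Ly6d, a surface antigen of lymphoid progenitors and B cells, had 2610.5 CPM (2476 to 2750.0) in cluster 18, 357 in cluster 8 and 182 in cluster 17, and 3703 CPM in cluster 2. For both genes 2 of the other 19 clusters were above cluster 18, which was thus high among the dendritic clusters and inside the range of the lymphocyte clusters.

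**Figure D2:**
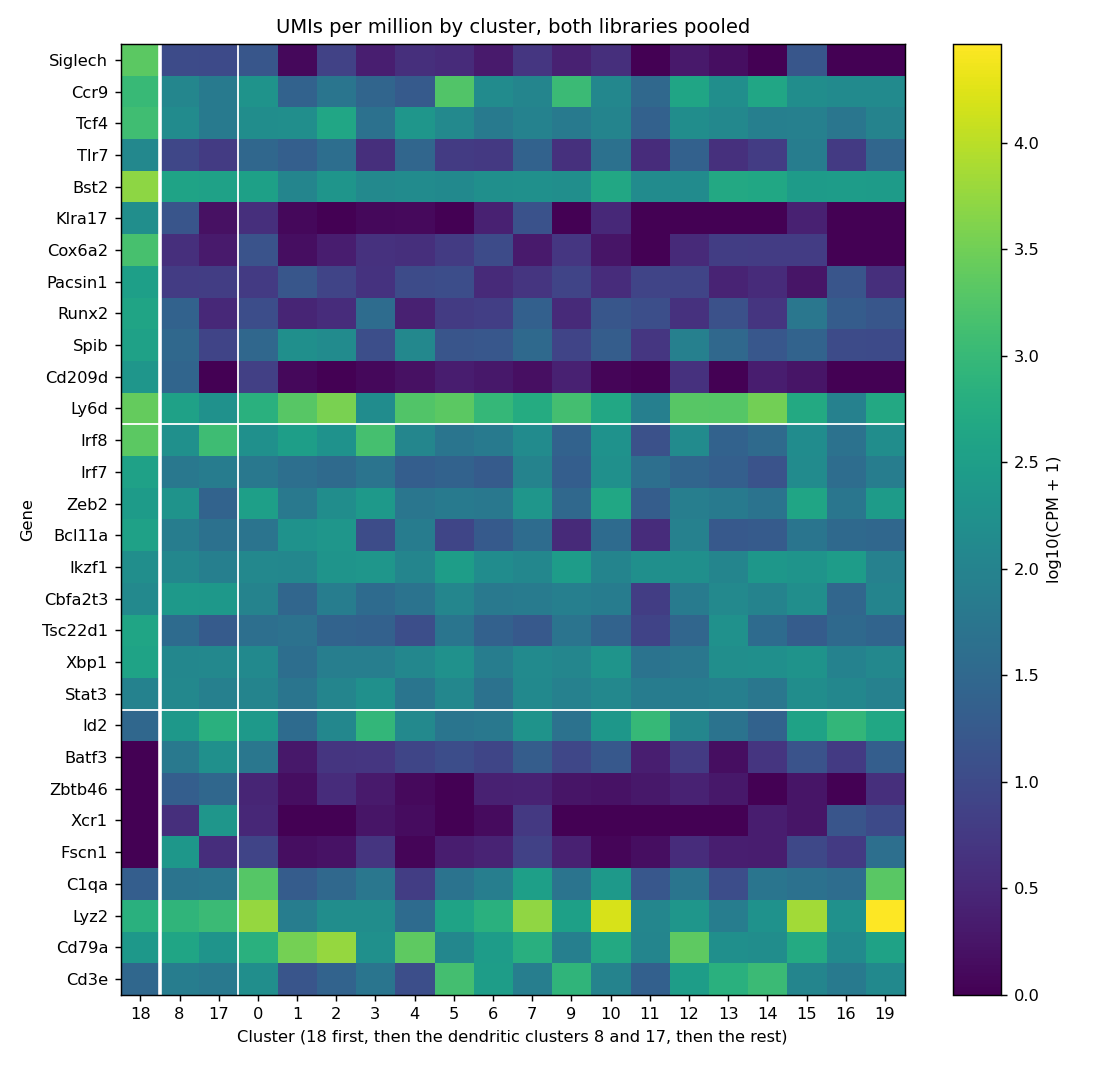
Level of each gene (rows) in each cluster (columns) as log10(CPM + 1), with cluster 18 in the first column, clusters 8 and 17 next and the rest by number. The upper block holds the 12 plasmacytoid markers, the middle block further transcription factors and the lower block genes of other cell types. Siglech reaches 2199.7 CPM in cluster 18 and at most 14.6 CPM elsewhere, whereas Ccr9 and Ly6d are also bright in lymphocyte columns, and Batf3, Zbtb46, Xcr1 and Fscn1 are at 0 in cluster 18.

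Over all genes, 8303 had enough counts to be compared with the mean of the other 19 clusters (10 counts seen plus expected in cluster 18). Of these, 9.26% were over 2-fold higher and 16.2% over 2-fold lower in cluster 18, and the median log2 ratio was -0.11. Against the mean of clusters 8 and 17, 7833 genes were compared, of which 13.5% were over 2-fold higher and 11.1% over 2-fold lower, with a median of 0.13. These percentages are the background for every list below. Scaling to the upper quartile in place of the total lowered all log2 ratios, by 0.36 at the median against the other clusters and by 0.50 against clusters 8 and 17. The higher genes then made up 18.97% of the genes past 2-fold against the other clusters, in place of 36.4%, and 25.9% against clusters 8 and 17, in place of 54.8%. Ranked over 9883 genes, the profile of cluster 18 was most like that of cluster 8 (Spearman rho 0.824) and then cluster 17 (0.808), cluster 4 (0.806) and cluster 0 (0.803), and least like cluster 16 (0.630). These correlations are across genes, which are not independent replicates, and the clusters with the lowest values also had few UMIs.

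The gene with the largest ratio was Klk1, tissue kallikrein, a secreted serine protease that releases kinins. It had 910.1 CPM (832 to 994) in cluster 18, 0.179 in cluster 8 and 0 in cluster 17, with a highest value elsewhere of 4.57 CPM in cluster 15. Of all Klk1 counts, 84.9% were in cluster 18. Klk1b27, a close relative in the same gene family, had 155 CPM (123 to 192) in cluster 18 and 0 counts in clusters 8 and 17. Reads of such near-identical kallikreins may be split or shared between the genes in counting, so the level of each is uncertain. For Klk1b27 no other cluster exceeded 1.23 CPM.

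Cox6a2, the muscle form of a cytochrome c oxidase subunit, had 1459 CPM (1359 to 1564) in cluster 18, 3.05 in cluster 8 and 1.12 in cluster 17, and at most 12.6 CPM elsewhere. Atp2a1, the calcium pump of the sarcoplasmic reticulum in fast skeletal muscle, had 138 CPM (109 to 173) in cluster 18, 0.717 in cluster 8, 0.559 in cluster 17 and at most 11.02 CPM elsewhere. Sh3bgr, best known from heart and skeletal muscle, had 93.96 CPM (69.96 to 124) in cluster 18, 0.717 in cluster 8, 0 in cluster 17 and at most 5.08 CPM elsewhere. These 3 genes carry names from muscle, and for each of them cluster 18 lay above all other clusters. Cdh5, the VE-cadherin of endothelial junctions, had 103 CPM (77.9 to 134) in cluster 18 and at most 1.46 CPM in any other cluster, while 6 of the 8 vessel wall markers, among them Acta2, Myh11, Dcn and Col1a1, had 0 counts in cluster 18. The other vessel wall marker with counts, Pecam1, which leukocytes also express, had 66.3 CPM (46.5 to 91.8) in cluster 18, 25.8 in cluster 8 and 13.4 in cluster 17. The 8 vessel wall markers summed in cluster 18 to 169 CPM, rank 2 of 20 clusters, against 35.9 in cluster 8 and 17.9 in cluster 17. Their sum had a median of 79.4 CPM over the other clusters and was highest in cluster 0, at 558 CPM. The part of vessel wall cells or their RNA in these levels was not tested.

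Several leading genes encode receptors at the cell surface. Cd300c, a paired receptor of myeloid cells, had 278 CPM (236 to 326) in cluster 18, 7.17 in cluster 8 and 6.71 in cluster 17, its highest value elsewhere being 7.17 CPM. Cd209d, a C-type lectin related to DC-SIGN, had 225 CPM (187 to 268) in cluster 18, 27.1 in cluster 8 and 0 in cluster 17. Klra17, an inhibitory Ly49 receptor also called Ly49Q, had 157 CPM (125 to 194) in cluster 18, 13.99 in cluster 8 and 0.559 in cluster 17, with the caution that Ly49 genes are similar in sequence. Cluster 8 held the next highest level of all 3 genes. Lag3, an inhibitory receptor for class II molecules, had 210.0 CPM (173 to 252) in cluster 18, 9.50 in cluster 8, 6.71 in cluster 17 and at most 15.2 CPM, in cluster 5. Havcr1, also called TIM-1, a receptor for phosphatidylserine, had 73.7 CPM (52.6 to 100.3) in cluster 18 and at most 3.35 CPM elsewhere. For each of these receptors cluster 18 stood above the other 19 clusters.

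The rest of the 25 leading genes had between 20 and 230 counts in cluster 18. Pacsin1, a membrane-bending adaptor of endocytosis that is otherwise mainly neuronal, had 332 CPM (285 to 384) in cluster 18, 5.20 in cluster 8, 5.59 in cluster 17 and at most 14.8 CPM elsewhere. Upb1, the last enzyme of pyrimidine breakdown, had 368 CPM (319 to 423) in cluster 18, 20.8 in cluster 8, 6.15 in cluster 17 and at most 22.1 CPM elsewhere. Lefty1, a secreted inhibitor of Nodal signalling, had 122 CPM (94.04 to 155) in cluster 18, 3.77 in cluster 8 and 7.83 in cluster 17. In these 3 genes cluster 18 stood more than 10-fold above both neighbours. Pir, an iron-containing nuclear protein, had 66.3 CPM (46.5 to 91.8) in cluster 18 and 0.359 and 6.71 CPM in clusters 8 and 17. Fads3, a member of the fatty acid desaturase family, had 75.5 CPM (54.2 to 102) in cluster 18 and 1.43 and 2.80 CPM in clusters 8 and 17. Both were at or near 0 in most other clusters. The remaining leading genes were Smim5 (403 CPM in cluster 18), Gm21762 (424), AC140186.1 (230.3), Paqr5 (122), Pdzd4 (93.96), Gm14964 (46.1), Fbxl13 (40.5) and Foxr1 (36.8). Of these 8, Smim5 and Paqr5 had their highest level elsewhere in cluster 13, at 44.1 and 33.1 CPM. Ccdc162, at 60.8 CPM (41.8 to 85.4) in cluster 18, was the 1 gene among the 10 leading against clusters 8 and 17 that is not one of the 25.

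**Figure D3:**
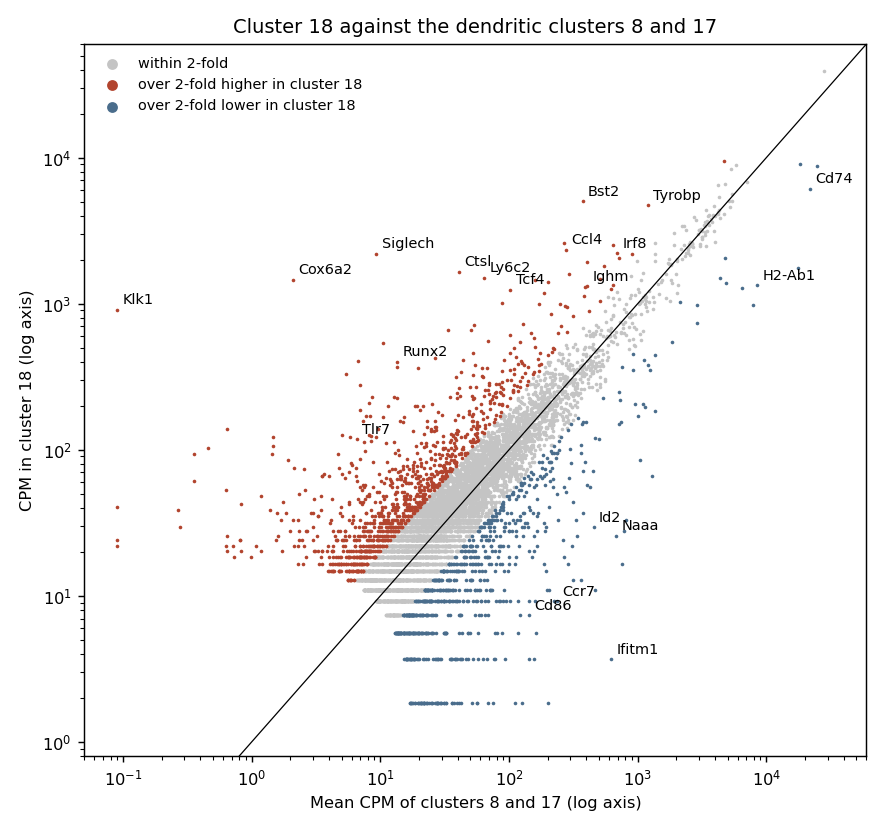
CPM in cluster 18 (vertical, log axis) against the mean CPM of clusters 8 and 17 (horizontal, log axis) for 7755 compared genes with a count on both sides. The line marks equal levels and colours mark genes over 2-fold apart. Klk1, Cox6a2 and Siglech lie far above the line, and Ifitm1, Id2, Ccr7 and the class II genes Cd74 and H2-Ab1 lie below it.

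The list of surface and identity genes of plasmacytoid dendritic cells had 23 members, all with counts in cluster 18, of which 22 could be compared. Siglech, Bst2, Ccr9, Klra17, Cox6a2, Pacsin1, Cd209d and Ly6d are also among the 12 markers. Of the 23 members, 12 were among the 50 genes leading against the other clusters. The list was written with earlier results of these data known, so its counts describe the cluster and are not further support for the label. Against the other 19 clusters 21 of 22 were over 2-fold higher (background 9.26%) and 0 were lower (background 16.2%), with a median log2 ratio of 4.16. Against clusters 8 and 17, 21 of 22 were over 2-fold higher (background 13.5%) and 0 lower (background 11.1%), with a median of 4.18. The exception in both comparisons was Nrp1, a coreceptor for semaphorins that marks these cells in humans as BDCA-4, at 60.8 CPM (41.8 to 85.4) in cluster 18, 30.3 in cluster 8 and 45.8 in cluster 17. Ly6c2 had 1503 CPM (1402 to 1610.1) in cluster 18, 103 in cluster 8 and 25.7 in cluster 17, and its highest value elsewhere was 755 CPM in cluster 10. Ly6c2 also marks classical monocytes, and that list of 7 genes summed in cluster 18 to 1857 CPM, against 2905 in cluster 8 and 492 in cluster 17, with a range of 40.9 to 4982 CPM over the other clusters. Of its 6 compared members, Ly6c2 was over 2-fold higher and Fn1 (12.9 CPM), F13a1 (7.37 CPM) and S100a4 (66.3 CPM) were lower than in the other clusters. Against clusters 8 and 17, the same 3 were lower and Ly6c2 and Chil3, a secreted chitinase-like protein, were higher. Chil3 had 99.5 CPM (74.7 to 129.8) in cluster 18, 10.8 in cluster 8 and 16.8 in cluster 17, and Vcan had 0 counts in cluster 18. The part of monocytes in these levels was not tested. Plac8 had 2540.5 CPM (2408 to 2678) in cluster 18, 661 in cluster 8 and 627 in cluster 17. Lair1, a collagen receptor, had 665 CPM (598 to 737) in cluster 18, 41.6 in cluster 8 and 25.7 in cluster 17. Rnase6, a secreted ribonuclease, had 1398 CPM (1301 to 1501) in cluster 18, 123 in cluster 8 and 276 in cluster 17. Ly6c2, Plac8, Lair1 and Rnase6 were each highest in cluster 18.

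Transcription factors came next. Of 12 factors tied to the plasmacytoid lineage, 8 were over 2-fold higher than in the other clusters and 0 lower (median log2 ratio 2.75), and 9 were over 2-fold higher than in clusters 8 and 17 and 0 lower (median 2.07). Tcf4, Runx2 and Spib of this list are also among the 12 markers of the label. Besides Tcf4, Runx2, which works in mature plasmacytoid cells, had 402 CPM (350.1 to 459) in cluster 18, 24.7 in cluster 8, 2.24 in cluster 17 and at most 57.9 CPM elsewhere. Spib, an Ets factor, had 363 CPM (314 to 417) in cluster 18, 31.7 in cluster 8 and 7.27 in cluster 17, with a highest value of 163 CPM in cluster 1, which the deposited table names B cells. Bcl11a, a zinc finger factor needed for the lineage, had 361 CPM (312 to 415) in cluster 18, 77.1 in cluster 8 and 45.3 in cluster 17. Tcf4, Runx2, Spib and Bcl11a all shared 1 order, with cluster 18 highest, cluster 8 next of the 3 and cluster 17 lowest. Irf8, shared by plasmacytoid and type 1 conventional dendritic cells, had 2219.9 CPM (2096 to 2349) in cluster 18, 176 in cluster 8 and 1203 in cluster 17. Irf8 was thus highest in cluster 18, and cluster 17 was well above cluster 8. Tsc22d1, a leucine zipper protein, had 424 CPM (371 to 482) in cluster 18, 35.7 in cluster 8 and 17.9 in cluster 17. Zeb2, a repressor that acts on Id2 in these cells, had 278 CPM (236 to 326) in cluster 18, 195 in cluster 8 and 25.7 in cluster 17, over 2-fold higher only against the mean of clusters 8 and 17. Ikzf1 (160.3 CPM), Cbfa2t3 (123 CPM) and Stat3 (93.96 CPM) stayed within 2-fold in both comparisons. Cbfa2t3 was just short of 2-fold lower than the mean of clusters 8 and 17 (log2 ratio -0.986). Both neighbours were above it, at 247 CPM (cluster 8) and 242 CPM (cluster 17).

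The factors of conventional dendritic cells were mostly low. Of 8 such factors, 7 were over 2-fold lower than in clusters 8 and 17 and 0 higher (median log2 ratio -2.08), and against the other 19 clusters 4 of 7 compared were lower and 0 higher (median -1.39). Id2 had 29.5 CPM (16.8 to 47.9) in cluster 18, 237 in cluster 8 and 671 in cluster 17, with 24.4, 192 and 996 CPM as the lowest, median and highest of the other clusters. Only 1 of the other 19 clusters was lower than cluster 18 for Id2. Batf3, needed for type 1 conventional cells, had 0 counts in cluster 18, 62.6 CPM in cluster 8 and 176 CPM in cluster 17. Zbtb46, which marks the conventional lineage, had 0 counts in cluster 18, 20.3 CPM in cluster 8 and 29.6 CPM in cluster 17. Taking 0 as 3 counts, the log2 ratio to clusters 8 and 17 was at most -4.43 for Batf3 and -2.17 for Zbtb46. Relb, a NF-kappaB subunit of mature dendritic cells, had 9.21 CPM (2.99 to 21.5) in cluster 18, 151 in cluster 8 and 19.01 in cluster 17. Klf4, a factor of monocytes and type 2 conventional cells, had 75.5 CPM (54.2 to 102) in cluster 18, 212 in cluster 8 and 149.8 in cluster 17. Irf4 was the 1 member not over 2-fold lower than its neighbours, at 31.3 CPM (18.2 to 50.1) in cluster 18, 34.2 in cluster 8 and 8.39 in cluster 17.

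The genes of endosomal nucleic acid sensing were described by role. Among the receptors, Tlr7, which binds single-stranded RNA, had 118 CPM (90.8 to 151) in cluster 18, 8.07 in cluster 8 and 5.03 in cluster 17, and its highest value elsewhere was 77.7 CPM in cluster 15. Tlr9, which binds DNA, had 1 count in cluster 18, which is 1.84 CPM (0.0466 to 10.3), and 1.26 CPM in cluster 8, 1.12 CPM in cluster 17 and at most 3.27 CPM in any cluster. At the depth of cluster 18, its Tlr9 level could not be told apart from the levels elsewhere. Tlr3, the receptor for double-stranded RNA, had 0 counts in cluster 18, 3.41 CPM in cluster 8 and 124 CPM in cluster 17. Tlr8 had 0 counts and Tlr13, a sensor of bacterial ribosomal RNA, had 2 counts in cluster 18. Tlr7 was therefore the only one of the 5 receptors on the list with more than 2 counts there. Tlr12, a sensor of a parasite protein in endosomes, was not on the list and was looked up after its value was seen, at 35.00 CPM in cluster 18 and 5.0 CPM as the mean of clusters 8 and 17.

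Of the proteins that carry and serve these receptors, Unc93b1, Slc15a4 and Cnpy3 had their highest transcript level in cluster 18, whereas Hsp90b1 (described with the secretory genes) was second and the adaptor subunits Ap3b1 and Ap3d1 were within 2-fold of both references. Unc93b1, the chaperone that brings endosomal receptors to their compartment, had 825 CPM (751 to 905) in cluster 18, 275 in cluster 8 and 358 in cluster 17, with at most 658 CPM elsewhere. Slc15a4, a lysosomal transporter that TLR7 signalling in these cells needs, had 111 CPM (84.4 to 142) in cluster 18, 55.6 in cluster 8 and 19.01 in cluster 17. Cnpy3, a co-chaperone of Toll-like receptors, had 127 CPM (98.9 to 161) in cluster 18, 74.2 in cluster 8 and 68.8 in cluster 17. For these 3 genes cluster 18 lay above all other clusters, although the interval of Slc15a4 reached below the 86.1 CPM of cluster 15.

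Enzymes that cut nucleic acids or receptors in the endosome formed the last group. Pld4, a 5′ exonuclease of endosomes, had 857 CPM (781 to 938) in cluster 18, 176 in cluster 8 and 248 in cluster 17, whereas the related Pld3 had 5.53 CPM (1.14 to 16.2) in cluster 18, 24.03 in cluster 8 and 16.2 in cluster 17. Cluster 18 was the highest of 20 clusters for Pld4 and the lowest for Pld3. The Pld3 level came from few counts, and its interval ended near the level of cluster 17, so that rank is uncertain. Rnaset2a and Rnaset2b, near-identical copies of a lysosomal ribonuclease whose reads may be split between them, had 418 CPM (366 to 476) and 461 CPM (405 to 521) in cluster 18. Rnaset2a had 207 CPM in cluster 8 and 131 in cluster 17, and Rnaset2b had 97.01 CPM in cluster 8 and 107 in cluster 17. Ctsl, the protease cathepsin L, had 1654 CPM (1548 to 1766) in cluster 18, 52.4 in cluster 8 and 29.1 in cluster 17, and at most 353 CPM elsewhere. Ctsb, cathepsin B, had 1601 CPM (1496 to 1711) in cluster 18, 322 in cluster 8 and 260.0 in cluster 17, but was higher still in cluster 10 at 2263 CPM. Ctsl was thus far above every other cluster and Ctsb was not. Ctss, cathepsin S, which trims the invariant chain of class II molecules, had 1074 CPM (989 to 1165) in cluster 18, 1564 in cluster 8 and 704 in cluster 17, inside the range of its neighbours. Lgmn, a lysosomal endopeptidase, had 58.95 CPM (40.3 to 83.2) in cluster 18, 175 in cluster 8 and 72.1 in cluster 17, over 2-fold lower in both comparisons. Over the whole list of 20 genes, 10 of 16 compared were over 2-fold higher and 2 lower than in the other clusters (median log2 ratio 1.32), and 9 of 17 higher and 3 lower than in clusters 8 and 17 (median 1.06).

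**Figure D4:**
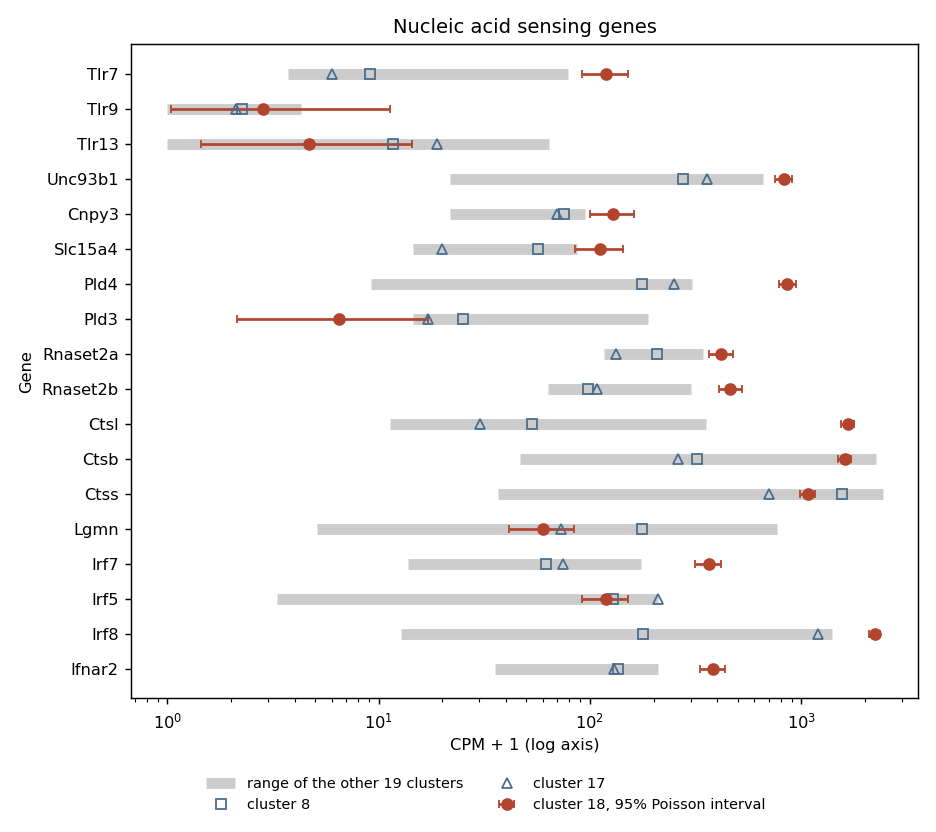
CPM + 1 (log axis) of genes of nucleic acid sensing and interferon signalling in cluster 18 (filled circles with exact Poisson 95% intervals) and in clusters 8 (squares) and 17 (triangles). Grey bars span the lowest to highest of the other 19 clusters. Tlr7, Unc93b1, Pld4, Ctsl, Irf7 and Ifnar2 lie to the right of every other cluster in cluster 18. The Pld3 point, from few counts, lies to the left of the bar, and Tlr9 is near 0 everywhere.

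Downstream of the receptors, higher genes were about as frequent as over all genes. The background was 9.26% higher and 16.2% lower against the other clusters, and 13.5% and 11.1% against clusters 8 and 17. Of the MyD88 and IRF list, 2 of 19 members were over 2-fold higher and 5 lower than in the other clusters (median log2 ratio -0.19, but 0.12 with a filter of 40 counts), and 2 of 18 higher and 4 lower than in clusters 8 and 17 (median -0.37, but 0.35 against cluster 17 alone). The 2 higher members were the same genes in both comparisons, Irf7 and Irf1. Irf7, the factor that switches on interferon genes, had 363 CPM (314 to 417) in cluster 18, 60.8 in cluster 8, 73.2 in cluster 17 and at most 173 CPM elsewhere. Irf1 had 112 CPM (85.96 to 144) in cluster 18, 50.4 in cluster 8 and 19.6 in cluster 17. Myd88 itself had 35.00 CPM (21.1 to 54.7) in cluster 18, 63.7 in cluster 8 and 65.4 in cluster 17, within 2-fold of both references. Nfkbia, the inhibitor of NF-kappaB that is itself an NF-kappaB target, had 219 CPM (182 to 262) in cluster 18, 1152 in cluster 8 and 318 in cluster 17. Traf3, an adaptor between MyD88 and the IRF kinases, had 5.53 CPM (1.14 to 16.2) in cluster 18, 22.95 in cluster 8 and 9.50 in cluster 17. Cluster 18 had the lowest Traf3 of the 20 clusters, from 3 counts, with an interval that reached above cluster 17.

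No interferon message was counted in cluster 18. All 20 type I and type III interferon genes of the list, Ifnb1 and Ifna4 among them, had 0 counts in its 542811 UMIs, which allows up to 5.53 CPM for each. In all 20 clusters together there were 12 counts, from 4 of the 20 genes. Interferon message was thus at or near 0 in every cluster and gave no contrast.

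Interferon-stimulated genes were mixed. For them and for the cytosolic sensors below, the background against the other clusters was 9.26% higher and 16.2% lower. Against clusters 8 and 17 it was 13.5% higher and 11.1% lower. Of 27 compared members, 4 were over 2-fold higher and 7 lower than in the other clusters (median log2 ratio 0.16, but -0.29 with upper quartile scaling and -0.63 against the other clusters named Macrophages), and 4 were higher and 6 lower than in clusters 8 and 17 (median -0.27, but 0.50 against cluster 17 alone and 0.93 with a filter of 40 counts). Ifi44 had 64.5 CPM (44.9 to 89.7) in cluster 18, 12.4 in cluster 8 and 25.7 in cluster 17. Stat2, a subunit of the factor that type I interferon receptors activate, had 73.7 CPM (52.6 to 100.3) in cluster 18, 28.3 in cluster 8 and 41.4 in cluster 17. Ifi44 and Stat2 were over 2-fold higher in both comparisons and highest in cluster 18. Ly6e, with the most counts of the list, had 2063 CPM (1944 to 2188) in cluster 18, 756 in cluster 8 and 687 in cluster 17, and Ifi27l2a had 1962 CPM (1846 to 2083) in cluster 18, 1279.6 in cluster 8 and 701 in cluster 17. Both were above the neighbours and below other clusters, at up to 3547 CPM for Ly6e in cluster 14 and 3058 CPM for Ifi27l2a in cluster 10. Isg15, a ubiquitin-like protein, had 60.8 CPM (41.8 to 85.4) in cluster 18, 129 in cluster 8 and 73.8 in cluster 17, and reached 278 CPM in cluster 7. Rtp4 had 7.37 CPM (2.01 to 18.9) in cluster 18, 42.1 in cluster 8 and 9.50 in cluster 17, and Ifit1 had 0 counts in cluster 18, 25.1 CPM in cluster 8 and 0 counts in cluster 17. These 3 genes were thus below cluster 8. Ifitm3, which blocks virus entry, had 184 CPM (149.9 to 224) in cluster 18, 2009 in cluster 8 and 726 in cluster 17, over 2-fold lower in both comparisons. Among cytosolic sensors, 1 of 9 was over 2-fold higher and 1 lower than in the other clusters (median log2 ratio 0.09, but -0.34 with upper quartile scaling), and 0 of 10 were higher and 2 lower than in clusters 8 and 17. The higher one was Tmem173, which encodes the DNA pathway adaptor STING, at 86.6 CPM (63.6 to 115) in cluster 18, 79.1 in cluster 8 and 83.3 in cluster 17, with both neighbours inside its interval. Samhd1, which degrades nucleotides and restricts retroviruses, had 216 CPM (178 to 258) in cluster 18, 273 in cluster 8 and 224 in cluster 17. The RNA sensor gene Ddx58 had 5.53 CPM (1.14 to 16.2) in cluster 18, 36.4 in cluster 8 and 3.91 in cluster 17, lower than cluster 8 and with cluster 17 inside its interval.

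Siglec-H signals through the adaptor DAP12, encoded by Tyrobp, which recruits kinases through its ITAM. Tyrobp had 4729 CPM (4548 to 4916) in cluster 18, 1548 in cluster 8 and 838 in cluster 17, and its highest value elsewhere was 2558 CPM in cluster 15. Blnk, a B cell linker that also works below DAP12 in plasmacytoid cells, had 181 CPM (147 to 220.0) in cluster 18, 34.97 in cluster 8 and 21.2 in cluster 17, beside 177 CPM in cluster 1, named B cells, which lay inside the interval of cluster 18. For both, cluster 18 had the highest level of the 20. Ptpn6, the phosphatase SHP-1, had 488 CPM (431 to 551) in cluster 18, 279.9 in cluster 8 and 164 in cluster 17. Fcer1g, the other ITAM adaptor of myeloid cells, had 1264 CPM (1171 to 1362) in cluster 18, 1530.1 in cluster 8 and 475 in cluster 17, which put cluster 18 between its neighbours. Of the 15 genes of the list, 6 of 14 were over 2-fold higher and 1 lower than in the other clusters (median log2 ratio 0.89), and 4 of 15 higher and 1 lower than in clusters 8 and 17 (median 0.44, but -0.03 with upper quartile scaling). The background was 9.26% higher and 16.2% lower against the other clusters, and 13.5% and 11.1% against clusters 8 and 17. Within the Siglec family, Siglech and Cd33 were the 2 members over 2-fold higher in both comparisons, and Siglec1, Siglece, Siglec15 and Mag had 0 counts in cluster 18. Cd33 had 40.5 CPM (25.4 to 61.4) in cluster 18, 23.5 in cluster 8 and 2.24 in cluster 17. Cd22, a B cell inhibitory receptor, had 12.9 CPM (5.18 to 26.6) in cluster 18, 29.05 in cluster 8 and 19.01 in cluster 17, and Siglecg had 53.4 CPM (35.8 to 76.7) in cluster 18, 115 in cluster 8 and 51.4 in cluster 17. Both were highest in cluster 2, named B cells, and not in cluster 18.

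Antigen presentation genes were lower in cluster 18 than in its dendritic neighbours. Of 17 class II and co-stimulation genes, 15 were over 2-fold lower and 0 higher than in clusters 8 and 17 (median log2 ratio -2.15), and 9 of 16 were lower and 0 higher than in the other 19 clusters (median -1.22). H2-Ab1, a class II chain, had 1334 CPM (1238 to 1435) in cluster 18, 8174 in cluster 8 and 8824 in cluster 17, beside 1381 CPM as the median of the other clusters. Cd74, the invariant chain, had 6120.0 CPM (5914 to 6332) in cluster 18, 21669.6 in cluster 8 and 21962 in cluster 17, beside a median of 4934 CPM. For both genes cluster 18 was far below clusters 8 and 17 and near the median cluster. Ciita, the master regulator of class II genes, had 31.3 CPM (18.2 to 50.1) in cluster 18, 201 in cluster 8 and 176 in cluster 17. Cd86, a ligand that co-stimulates T cells, had 7.37 CPM (2.01 to 18.9) in cluster 18, 156 in cluster 8 and 131 in cluster 17. Cd83, a maturation marker, had 36.8 CPM (22.5 to 56.9) in cluster 18, 413 in cluster 8 and 335 in cluster 17. Each of these 3 was over 2-fold lower in both comparisons. The 2 members within 2-fold of clusters 8 and 17 were H2-DMa (516 CPM in cluster 18) and H2-Oa (77.4 CPM).

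Among cytokines, chemokines and killing genes, 2 of 10 compared members were over 2-fold higher and 6 lower than in the other clusters, and 3 of 12 higher and 7 lower than in clusters 8 and 17. The background was 9.26% higher and 16.2% lower against the other clusters, and 13.5% and 11.1% against clusters 8 and 17. Ccl4, a chemokine that attracts leukocytes, had 2338 CPM (2211 to 2470.1) in cluster 18, 279 in cluster 8 and 275 in cluster 17, second only to 4324 CPM in cluster 3, named NK cells. The related Ccl3 had 232 CPM (193 to 276) in cluster 18, 52.00 in cluster 8 and 31.9 in cluster 17, beside 1308 CPM in cluster 3. Il12a, the p35 chain of interleukin 12, had 9 counts in cluster 18, which is 16.6 CPM (7.58 to 31.5), and 2.33 CPM in cluster 8 and 2.24 CPM in cluster 17. These were the 3 members over 2-fold higher than in clusters 8 and 17. Ccl5 had 16.6 CPM (7.58 to 31.5) in cluster 18, 481 in cluster 8 and 90.01 in cluster 17, the lowest of the 20 clusters. Gzmb had 1 count and Prf1, Fasl, Il10, Il12b, Cxcl9 and Cxcl10 had 0 counts in cluster 18.

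Receptors that place and feed the cells differed one by one. For both receptor lists, the background against the other clusters was 9.26% higher and 16.2% lower. Against clusters 8 and 17 it was 13.5% higher and 11.1% lower. In the homing list, 4 of 19 members were over 2-fold higher and 4 lower than in the other clusters (median log2 ratio -0.13, but 0.35 against pooled counts and 0.56 with a filter of 40 counts), and 6 of 19 higher and 5 lower than in clusters 8 and 17 (median 0.04, but -0.43 with upper quartile scaling). Cxcr3, a receptor for interferon-induced chemokines, had 81.1 CPM (58.9 to 109) in cluster 18, 4.30 in cluster 8 and 73.8 in cluster 17. Cxcr3 and Ccr9 were 2 of the 4 higher members against the other clusters. Cxcr3 was highest in cluster 18, though its interval included the level of cluster 17. Selplg, a selectin ligand, had 682 CPM (614 to 755) in cluster 18, 430.0 in cluster 8 and 326 in cluster 17, within 2-fold of both references. Cx3cr1, a fractalkine receptor of monocytes and some dendritic cells, had 20.3 CPM (10.1 to 36.3) in cluster 18, 45.2 in cluster 8 and 12.9 in cluster 17. Ccr7, which leads mature dendritic cells to lymph nodes, had 9.21 CPM (2.99 to 21.5) in cluster 18, 442 in cluster 8 and 31.3 in cluster 17, the lowest of the 20 clusters.

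In the growth factor and cytokine receptor list, 5 of 16 members were over 2-fold higher and 5 lower than in the other clusters (median log2 ratio -0.19, but 0.01 with a filter of 40 counts), and 4 of 15 higher and 3 lower than in clusters 8 and 17 (median -0.28, but 0.75 against cluster 17 alone). Flt3, whose ligand drives dendritic cell development, had 105 CPM (79.5 to 136) in cluster 18, 110.3 in cluster 8 and 136 in cluster 17, against a median of 8.67 CPM in the other clusters. Its level was thus shared by the 3 dendritic clusters, with cluster 8 inside the interval of cluster 18. Csf2rb2, the mouse beta chain for interleukin 3, had 107 CPM (81.1 to 138) in cluster 18, 37.7 in cluster 8 and 15.1 in cluster 17. Il3ra, the alpha chain that marks human plasmacytoid cells as CD123, had 40.5 CPM (25.4 to 61.4) in cluster 18, 24.7 in cluster 8 and 20.7 in cluster 17, with an interval that lay just above both neighbours and included the 36.9 CPM of cluster 10. Both receptor chains were highest in cluster 18. Ifnar2, a chain of the type I interferon receptor, had 379.5 CPM (329 to 435) in cluster 18, 134 in cluster 8 and 129 in cluster 17, the highest of the 20 clusters. Ifngr1, a chain of the receptor for interferon gamma, had 71.8 CPM (51.1 to 98.2) in cluster 18, 436 in cluster 8 and 465 in cluster 17, the lowest of the 20 clusters. Il7r had 234 CPM (195 to 278) in cluster 18, 87.3 in cluster 8 and 15.1 in cluster 17, and reached 2597 CPM in cluster 16.

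Plasmacytoid dendritic cells are known for a plasma cell-like endoplasmic reticulum, and genes of the secretory pathway were described for that reason. Of 34 genes, 7 were over 2-fold higher and 0 lower than in the other clusters (median log2 ratio 0.51), and 7 higher and 0 lower than in clusters 8 and 17 (median 0.58). The background was 9.26% higher and 16.2% lower against the other clusters, and 13.5% and 11.1% against clusters 8 and 17. Xbp1, the factor that builds the secretory apparatus, had 385 CPM (335 to 441) in cluster 18, 114 in cluster 8, 122 in cluster 17 and at most 204 CPM elsewhere. Edem2, which clears misfolded proteins, had 127 CPM (98.9 to 161) in cluster 18, 43.8 in cluster 8 and 29.1 in cluster 17. Herpud1, of the same degradation route, had 329.8 CPM (283 to 382) in cluster 18, 199 in cluster 8 and 173 in cluster 17. Sec61b, a subunit of the translocation channel, had 1209 CPM (1118 to 1305) in cluster 18, 662 in cluster 8 and 721 in cluster 17. These 4 genes were highest in cluster 18. Hsp90b1, which encodes GRP94, a chaperone of Toll-like receptors, had 1341 CPM (1246 to 1442) in cluster 18, 483 in cluster 8 and 808 in cluster 17, just under the 1384 CPM of cluster 14. Hspa5, the general chaperone BiP, had 628 CPM (563 to 699) in cluster 18, 645 in cluster 8 and 829 in cluster 17 and stayed within 2-fold of both references.

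Plasmacytoid dendritic cells share genes with early lymphoid cells, and in cluster 18 these were set against dendritic and lymphocyte clusters alike. Against clusters 8 and 17, 5 of 10 compared genes were over 2-fold higher and 1 lower (median log2 ratio 0.77, but -0.14 against cluster 8 alone), whereas against the other 19 clusters, B cell clusters included, 2 of 12 were higher and 7 lower (median -1.71). Ighm, the immunoglobulin mu heavy chain, had 1317 CPM (1222 to 1417) in cluster 18, 533 in cluster 8 and 276 in cluster 17, and 9453 CPM in cluster 4, named B cells. Igkc, the kappa light chain that B cells carry beside it, had 853 CPM (777 to 934) in cluster 18, 1367 in cluster 8 and 551 in cluster 17. Counts of Ighm per count of Igkc were 1.54 (1.37 to 1.74) in cluster 18, against 0.390 in cluster 8, while cluster 17 held 493 counts of Ighm and 986 of Igkc. In the other 19 clusters this ratio had a lowest value of 0.251, a median of 0.397 and a highest of 1.84 in cluster 9, named T cells, with 0.702 as the next highest, so cluster 18 and cluster 9 stood apart. Dntt, the terminal transferase of lymphoid precursors, had 173 CPM (139.9 to 212) in cluster 18, 91.1 in cluster 8 and 66.5 in cluster 17, against 1203 CPM in cluster 9. Cd79a, part of the B cell receptor, had 243 CPM (203 to 288) in cluster 18, 427 in cluster 8 and 205 in cluster 17, and Vpreb3 had 3.68 CPM (0.446 to 13.3) in cluster 18, 15.8 in cluster 8 and 12.3 in cluster 17. Rag1, which starts antigen receptor gene assembly, had 16.6 CPM (7.58 to 31.5) in cluster 18, 107 in cluster 8 and 63.7 in cluster 17. Ighm and Dntt were thus above both neighbours and Rag1 below them, and each of the 3 was far under its highest lymphocyte cluster.

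Of the 22 listed cell cycle genes, no compared member was over 2-fold higher in cluster 18 than in either reference mean. Of 20 compared, 6 were lower than in the other clusters (median log2 ratio -0.76), and of 19, 1 was lower than in clusters 8 and 17 (median -0.08, but 0.90 against cluster 8 alone). Mki67 had 60.8 CPM (41.8 to 85.4) in cluster 18, 34.4 in cluster 8 and 95.6 in cluster 17, against 2758 CPM in cluster 14. Hmgb2 had 783 CPM (710.3 to 861) in cluster 18, 391 in cluster 8 and 859 in cluster 17, and Tubb5 had 345 CPM (297 to 398) in cluster 18, 420.1 in cluster 8 and 545 in cluster 17. Cdc20 had 2 counts and Tyms 6 counts in cluster 18. For Mki67 and Hmgb2 cluster 18 lay between its neighbours.

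**Figure D5:**
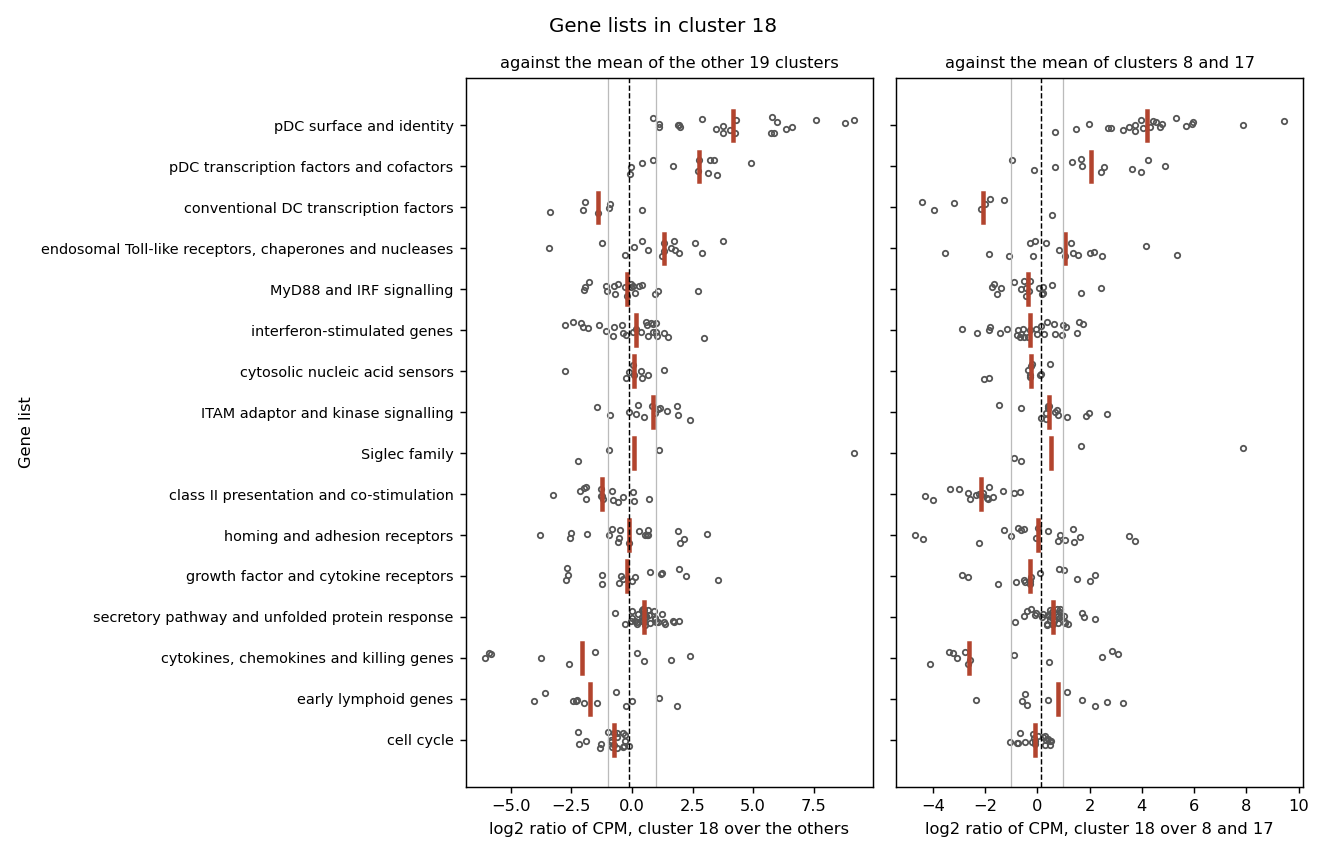
Log2 ratio of CPM of each compared list member (circles) in cluster 18 over the mean of the other 19 clusters (left panel) and over the mean of clusters 8 and 17 (right panel). Red bars are list medians, dashed lines the medians of all compared genes (-0.11 and 0.13) and grey lines mark 2-fold. The list of surface and identity genes has medians of 4.16 and 4.18, and the class II and co-stimulation list lies lowest against the dendritic clusters apart from the cytokine list, at -2.15.

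The genes furthest below clusters 8 and 17 were read by the same rule. Ifitm1 had 3.68 CPM (0.446 to 13.3) in cluster 18, 1017 in cluster 8 and 219.7 in cluster 17. Ifi205, an interferon-inducible gene that stands here on the list of type 2 conventional markers, had 0 counts in cluster 18, 45.7 CPM in cluster 8 and 545 CPM in cluster 17. Ckb, the brain creatine kinase, had 16.6 CPM (7.58 to 31.5) in cluster 18, 388 in cluster 8 and 1131 in cluster 17. Cluster 8 was the higher neighbour for Ifitm1, and cluster 17 for Ifi205 and Ckb. Mt1, a metal-binding metallothionein, had 11.1 CPM (4.06 to 24.1) in cluster 18, 489 in cluster 8 and 441 in cluster 17, and was lowest in cluster 18 of all 20 clusters. The other 6 genes were Olfm1, Sept3, Dab2, Tnip3, Tbc1d9 and Rab7b, each with 1 or 2 counts in cluster 18. Of these 6, Sept3 and Rab7b were far higher in cluster 17 (238 and 272 CPM) than in cluster 8 (13.4 and 13.1 CPM), and Dab2 and Tnip3 were higher in cluster 8 (192 and 269 CPM) than in cluster 17 (30.2 and 41.4 CPM).

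Markers of other cell types were summed in cluster 18 as a check of what else it could hold. The 11 macrophage markers, the name the deposited table gives, summed in cluster 18 to 995 CPM, against 1440.4 in cluster 8 and 1471 in cluster 17. The other clusters ranged from 72.5 to 36613 CPM with a median of 586 CPM, so the sum in cluster 18 was above the median. Of 10 compared, 9 were over 2-fold lower than in the other clusters, Mertk had 0 counts, and C1qa had 20.3 CPM (10.1 to 36.3) against a median of 50.5 CPM elsewhere. The exception was Cd68, at 204 CPM (168 to 246) in cluster 18, 188 in cluster 8 and 146 in cluster 17, which was over 2-fold higher than in the 19 other clusters but level with the other clusters named Macrophages (log2 ratio -0.039). Lyz2 had 671 CPM (603 to 743) in cluster 18, 849 in cluster 8 and 1087 in cluster 17, against 29101 CPM in cluster 19. Most macrophage markers were thus low against a mean that includes the clusters richest in them, but their sum was not below the median cluster. By its plasmacytoid markers the cluster is called plasmacytoid dendritic cell-like, which differs from the deposited name.

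Of the 10 markers of type 1 conventional cells, 6 had 0 counts in cluster 18, and the list summed in cluster 18 to 197 CPM, against 320 in cluster 8 and 2837 in cluster 17. For scale, 11249 of the 19560 genes with a count in any cluster had a count in cluster 18. Clec9a, a receptor for dead cells that is also known from mouse plasmacytoid cells, had 103 CPM (77.9 to 134) in cluster 18, 9.86 in cluster 8 and 163 in cluster 17. The 8 markers of type 2 conventional cells summed in cluster 18 to 608 CPM, against 1350.2 in cluster 8 and 664 in cluster 17. Of these, Clec10a had 262 CPM (220.3 to 308) in cluster 18, 263 in cluster 8 and 9.50 in cluster 17, and Cd209a had 177 CPM (143 to 216) in cluster 18, 495 in cluster 8 and 6.15 in cluster 17, while Mgl2 had only 18.4 CPM (8.83 to 33.9) in cluster 18 against 292 in cluster 8. The part of cells of cluster 8 in these levels was not tested. The 10 markers of mature dendritic cells, 5 of them at 0 in cluster 18, summed there to 131 CPM. Their sum was 1440.2 CPM in cluster 8 and 270.0 CPM in cluster 17. Of the 5 members compared with the other clusters, 1 was over 2-fold higher and 4 were lower. Of the 8 compared with clusters 8 and 17, 1 was higher and 7 were lower.

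Lymphocyte markers were low but not absent. The 10 B cell markers summed in cluster 18 to 671 CPM, against 1092 in cluster 8 and 507 in cluster 17 and up to 15125 CPM in cluster 2, and all 10 were over 2-fold lower than in the other clusters. The 10 T cell markers summed in cluster 18 to 709 CPM, against 1301 in cluster 8 and 1066 in cluster 17 and up to 16659 CPM in cluster 9. Of these 10, 9 were over 2-fold lower than in the other clusters and 0 higher. Against clusters 8 and 17, 7 of the 10 were lower and 1, Cd4, was higher. Within that list Cd4 had 123 CPM (95.7 to 157) in cluster 18, 42.1 in cluster 8 and 19.6 in cluster 17, above both neighbours. Cd8a had 122 CPM (94.04 to 155) in cluster 18, 96.8 in cluster 8 and 51.4 in cluster 17, with cluster 8 inside its interval, and Cd3e had 29.5 CPM (16.8 to 47.9) in cluster 18, 76.7 in cluster 8 and 62.1 in cluster 17. Plasmacytoid dendritic cells of mice are known to carry CD4 and CD8 in part. The 9 neutrophil markers summed to 293 CPM in cluster 18, of which S100a8 gave 158 and S100a9 127, against up to 103492 CPM in cluster 7. The 8 NK cell markers summed to 18.4 CPM and the 5 red blood cell genes to 9.21 CPM, and all 7 basophil and mast cell markers had 0 counts. RNA of other cells that floats free in the droplets was not measured here, and its part in these low levels was not tested. Apoe, disrupted in all the mice, had 0 counts in cluster 18 and at most 17.5 CPM in any other cluster. Ptprc, which encodes CD45, the antigen of the sort, had 685 CPM (617 to 759) in cluster 18, 687 in cluster 8 and 545 in cluster 17.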

How the data were processed

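The authors deposited whole-number UMI counts as 1 total per gene and cluster (20 clusters, with no split by library), and a table of cells with library, cluster and cell type name. Cell Ranger 2.1.1, Seurat and mm9 are named per the submitters' processing notes. How cells were filtered and clustered, and whether doublets were removed, the sources used here do not state. The deposited normalized table was not used. A deposited summary gives counts of cells per cluster, per the file headers, and its tallies equalled those of the cell table.

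From the deposited counts CPM was computed per cluster (count over the cluster's total). Ratios divide the CPM of cluster 18 by the mean of the other 19 clusters or by that of clusters 8 and 17. A gene was compared if counts seen plus expected in cluster 18 reached 10, a 0 was set to 3 counts, so such a ratio is a bound (list medians hold these genes at their bound), and over 2-fold was counted as higher or lower. Shares carry exact Clopper-Pearson, ratios of shares exact conditional and CPM exact Poisson 95% intervals, which cover counting error only. With 1 library per treatment, and clusters made from the same genes, no test was run and no p-value is given. Genes were named by rule. It takes the 25 genes with the largest ratio to the other clusters and the 10 with the largest ratio to clusters 8 and 17 (at least 20 counts), and the 10 with the smallest ratio to clusters 8 and 17. It adds, in each list, the 2 members with the largest ratio in size and the 2 with the most counts, the 12 markers, and 17 genes always named. Some members that the lists count are not reported here by name. Any further list member named was chosen after its values were seen. The members, lists, markers and rule were all chosen with earlier results of these data known. Mx2 was the 1 list member absent from the table's symbols. Promoters came from the RefSeq table of GRCm38.p6, matched by symbol, since mm9 is another build. Of the table's symbols, 30464 (98.1%) are in GENCODE M21. The calculations were tested on simulated data and run in Python 3.11.15 with pandas 2.3.3, scipy 1.17.1, numpy 2.4.6 and, for plots, matplotlib 3.10.9. Alternatives covered denominators, references, scaling, filters, a pseudocount of 0.5 CPM and a call rule with the Poisson interval.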

Additional observations from a re-analysis of the deposited data

How the results depend on the processing

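The number of genes over 2-fold apart depended on scaling and filter. Against the other 19 clusters, 769 genes were higher in cluster 18 and 1343 lower, with 473 and 2020 under upper quartile scaling, 1593 and 2119 with no filter, and 402 and 397 with a filter of 40 counts. Against clusters 8 and 17, 1054 were higher and 869 lower, with 565 and 1619 under upper quartile scaling, 2396 and 1373 with no filter, and 453 and 319 with a filter of 40 counts. Upper quartile scaling lowers all ratios of cluster 18, and the filters change how many genes are compared. The other alternatives kept these counts within 1.5 times. The ratio of shares of cluster 18, nt-LNA over saline, ran from 1.10 to 1.65 over the 4 denominators, and that of cells of cluster 18 per cell of clusters 8 and 17 was 1.755, with 1.92 for cluster 8 alone and 1.25 for cluster 17 alone.

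Of 240 list medians under alternatives, 198 stayed within 0.5 (log2) of the value given, 41 moved further, and 1 with a median past 2-fold reversed. That one was the cytokine list against clusters 8 and 17, at 0.43 with a filter of 40 counts in place of -2.62, because fewer genes were compared. Of 1116 values of single genes, 750 stayed inside the counting interval of the ratio given, 363 moved outside it, and 3 that were past 2-fold reversed. These were Cd68 at -0.039 against the other clusters named Macrophages, Ddx58 at 0.50 against cluster 17 alone and Tyms at 0.27 against cluster 8 alone, and the cause was not tested. No paired analysis was possible because each treatment had 1 library, and for the same reason no replicate could be left out. Depth limits genes under about 5.53 CPM, which 0 counts in cluster 18 allow, and 59 cells limit the shares.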

Other observations

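Some gene families not described above were looked at after their values had been seen, so they are descriptions that nothing supports beyond these counts. In the IFITM family of virus entry inhibitors, all 4 compared members were over 2-fold lower in cluster 18 than in both references. Ifitm2 had 84.7 CPM (62.04 to 113) in cluster 18, 1429 in cluster 8 and 659 in cluster 17, and Ifitm6 had 9.21 CPM (2.99 to 21.5) in cluster 18, 84.1 in cluster 8 and 26.3 in cluster 17, beside the low Ifitm1 and Ifitm3. This sits next to interferon-stimulated genes such as Ifi44 and Stat2 that were highest in cluster 18.

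The immunoglobulin lambda gene Iglc3 had 717 CPM (647 to 792) in cluster 18, 72.1 in cluster 8 and 35.8 in cluster 17. Its highest value elsewhere was 690.0 CPM in cluster 4, named B cells, which lay inside the interval of cluster 18. The kappa gene Igkc, by contrast, had 853 CPM in cluster 18 and 37591 CPM in that B cell cluster. Iglc2 had 212 CPM (175 to 254) in cluster 18, 219 in cluster 8 and 69.9 in cluster 17, and Iglc1 had 125 CPM (97.3 to 159) in cluster 18, 107 in cluster 8 and 31.9 in cluster 17. Iglc2 and Iglc3 are near-identical copies, and how counting split reads between them is not given, so the level of each is uncertain.

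Subunits of the phagocyte NADPH oxidase, which makes superoxide, were over 2-fold higher for 3 of 6 against the other clusters and against clusters 8 and 17. Cybb had 1185 CPM (1095 to 1279.8) in cluster 18, 323 in cluster 8 and 50.9 in cluster 17, and Ncf1 had 269 CPM (227 to 316) in cluster 18, 105 in cluster 8 and 68.8 in cluster 17. Of 10 compared cathepsins, 5 were over 2-fold higher and 2 lower than in the other clusters. For both families the background was 9.26% higher and 16.2% lower against the other clusters. Against clusters 8 and 17 it was 13.5% higher and 11.1% lower. Besides Ctsl and Ctsb, Ctsh had 1113 CPM (1026 to 1205) in cluster 18, 854 in cluster 8 and 316 in cluster 17, Ctsz had 833 CPM (758 to 913) in cluster 18, 814 in cluster 8 and 462 in cluster 17, and Ctso had 134 CPM (105 to 169) in cluster 18, 34.1 in cluster 8 and 18.4 in cluster 17. Of 8 cadherins, 6 had 0 counts in cluster 18. Beside Cdh5, Cdh1 had 62.6 CPM (43.4 to 87.5) in cluster 18, 25.8 in cluster 8 and 1.12 in cluster 17.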
